A study of Mus musculus with 6 samples.

Results

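The genes described here are 10 ubiquitin ligases with a known or proposed part in muscle wasting, namely Trim63, Fbxo32, Fbxo30, Fbxo31, Fbxo21, Trim32, Mul1, Traf6, Nedd4 and Cblb. They were selected by gene name, and all 10 were found by Entrez gene ID among the 13363 genes with deposited values. Gastrocnemius muscle was measured in 3 samples from mice with C26 tumors and 3 from mice without, all male Balb/c bought at 6 weeks of age and acclimated for 1 week. C26 is a mouse colon adenocarcinoma line that causes cachexia, a wasting syndrome, and the C26 mice had received 500000 cells under the skin of the flank. The control mice bore no tumor, and the labels name no allele or drug in either group. The model is a transplanted line in young mice, and each sample is bulk muscle tissue, in which fibers lie beside blood, fat, nerve and connective tissue. The labels number the 3 samples of a group and do not say that each came from a separate mouse, so the p-values measure the spread between these samples.

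Ubiquitin ligases are the last enzymes of the chain that tags proteins for the proteasome, and they choose the substrate. In wasting muscle they mark proteins of the contractile apparatus, of protein synthesis and of the mitochondria. F-box proteins such as Fbxo32 work as the substrate-binding part of an SCF complex, on a scaffold of cullin 1 and Skp1, whereas TRIM proteins such as Trim63 carry their own RING domain.

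The deposited values are FPKM, which correct a gene's level for transcript length and library size. Their sum over all genes ran from 531061 to 585169 per C26 muscle and from 626992 to 688300 per control. Fold changes below are on the log2 scale of TPM (FPKM rescaled to an equal sum) divided by TMM factors, with 1 added, and this added 1 understates the change of genes with low levels. Summed over 10 skeletal muscle markers, FPKM ran from 56240 to 84960 per C26 muscle and from 125800 to 133300 per control, whereas 4 epithelial markers with values summed to at most 1.48. Of the 10 muscle markers, 3 were called lower, namely Casq1, Pvalb and Mylpf, and 0 higher (limma). Other tissue differed as well. The 7 adipocyte markers, 6 of which were called lower in C26, summed to 251 to 386 FPKM per C26 muscle and 538 to 4130 per control. The 3 blood markers with values, all called higher, summed to 367 to 685 and 192 to 290 FPKM respectively, and the 6 fibroblast markers, 4 of them called lower, to 159 to 199 and 356 to 424 FPKM. Their part in the results below was not tested. The B cell markers Cd74 and Cd79b summed to 1277 FPKM in control replicate 3 and to at most 53.7 elsewhere. Fewer cells of a type and less RNA per cell cannot be told apart in bulk muscle.

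Of the 10 ligase genes, 6 passed an adjusted p of 0.05 as higher in C26 muscles and 0 as lower (limma, Benjamini-Hochberg adjusted over all 13363 genes). The 6 were Trim63, Fbxo32, Fbxo31, Fbxo30, Cblb and Mul1, and 4 of them passed a fold change of 4. Among all genes, 19.4% were called higher and 14.5% lower, and 1.76% were called higher and 1.73% lower with a fold change above 4. With an unadjusted p under 0.05 the counts were 7 higher and 0 lower, where 25.1% and 22% of all genes passed. The median log2 fold change of the 10 genes was 1.34, and that of all genes was -0.05. The FPKM of the groups did not overlap, with C26 higher, for the same 6 genes, against 18.7% of all genes. The balance of calls over all genes moved with the scaling, since 57.3% of calls were higher as reported, 40.1% with FPKM as deposited and 31.2% with the 20 most abundant genes left out of the scaling. The last of these lowered the median of all genes by 0.22 (log2), and the same 6 ligase genes were called under every alternative.

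**Figure D1:**
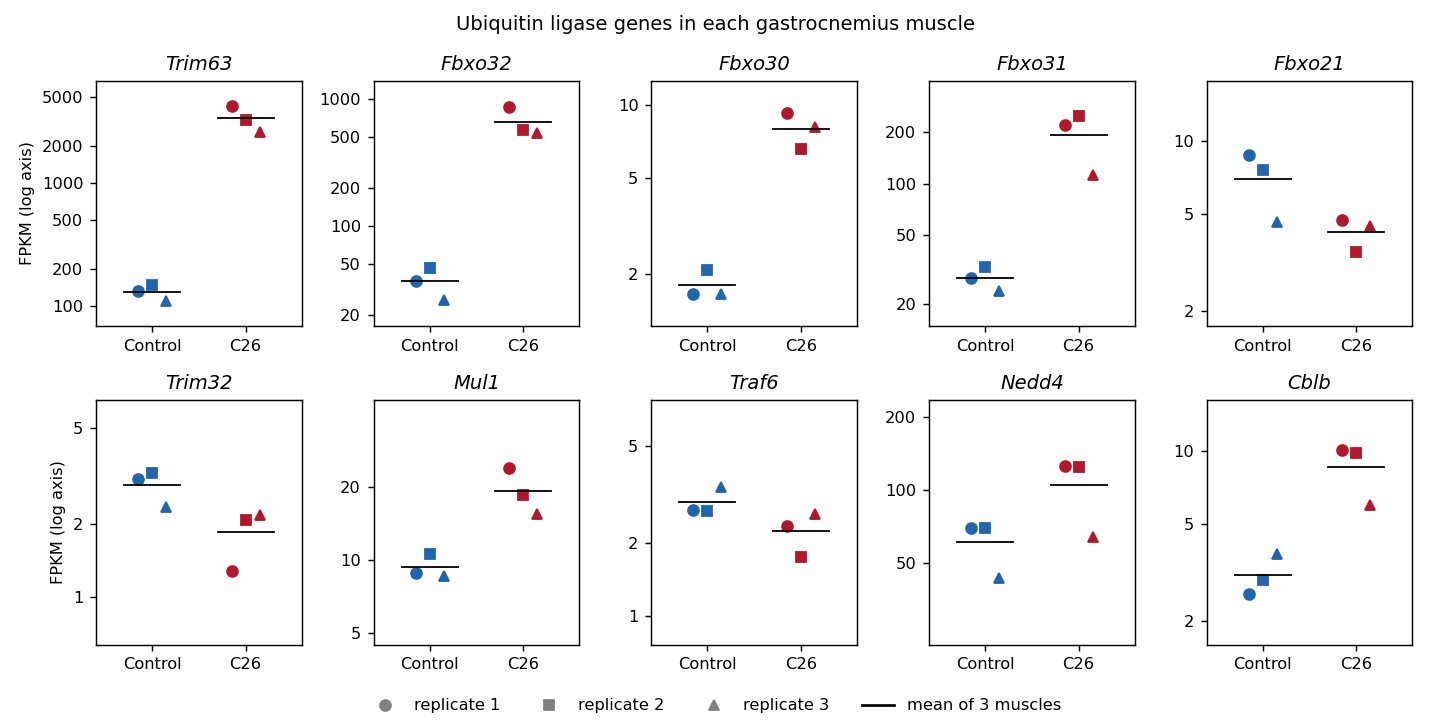
FPKM of the 10 ubiquitin ligase genes in each muscle, on a log axis, with control muscles in blue, C26 muscles in red, the replicate number as the marker shape and the mean of 3 muscles as a line. The C26 muscles lie above every control muscle for Trim63, Fbxo32, Fbxo30, Fbxo31, Mul1 and Cblb, and the groups overlap for Nedd4 and Fbxo21.

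Trim63, also called MuRF1, is a RING ligase of the sarcomere that marks myosin and other thick filament proteins. Trim63 had 4230.1, 3229.6 and 2616 FPKM in C26 replicates 1 to 3 and 131, 147 and 109 FPKM in control replicates 1 to 3. Its lowest C26 muscle was 17.8-fold above its highest control muscle. C26 Trim63 exceeded control by 4.89 on the log2 scale, with an SE of 0.24 and a limma adjusted p of 0.000822, and ranked as the fourth highest change of all genes. By FPKM, Trim63 ranked 16, 17 and 22 among 13363 genes in C26 replicates 1 to 3, against 497, 432 and 568 in the controls. In every C26 muscle it was thus among the 22 most abundant transcripts by FPKM.

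Fbxo32, also called atrogin-1 or MAFbx, is the F-box protein that binds the translation factor eIF3f and the myogenic factor MyoD. Fbxo32 had 861, 572 and 541 FPKM in C26 replicates 1 to 3, against 37.0, 46.8 and 26.2 in the controls. The lowest C26 muscle was 11.6-fold above the highest control. C26 Fbxo32 exceeded control by 4.36 on the log2 scale, with an SE of 0.31 and a limma adjusted p of 0.00116. By FPKM, replicate 3 had the lowest Fbxo32 and the lowest Trim63 in both groups, whereas after scaling C26 replicate 2 had the lowest Fbxo32 of its group. Replicate 1 was the highest C26 muscle and replicate 2 the highest control for both genes.

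Trim63 and Fbxo32 together made up 90.2% to 93.6% of the summed FPKM of the 10 genes per C26 muscle, against 57.3% to 59.7% per control. The share of the 10 genes in all listed FPKM was 1.03%, 0.778% and 0.576% in the C26 muscles, against 0.0448%, 0.0519% and 0.0329% in the control muscles. In every C26 muscle Trim63 alone exceeded the sum of the other 9 genes, with 76.6% to 77.6% of the total. In the control muscles it held 44.7% to 48.1%.

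**Figure D2:**
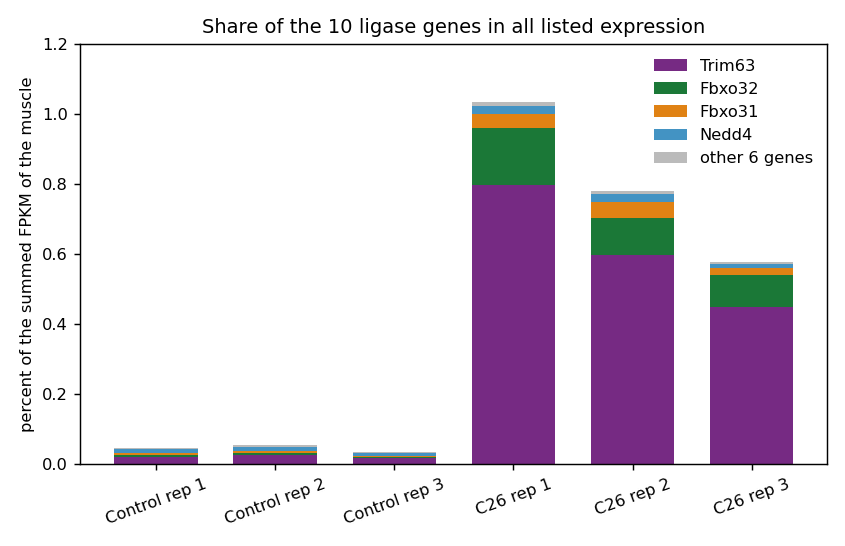
Share of the 10 ubiquitin ligase genes in the summed FPKM of each muscle, in percent, as stacked bars that start at 0. Trim63 forms most of each C26 bar, and the C26 bars reach 0.576% to 1.03%, against at most 0.0519% in control muscles.

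Whether Trim63 and Fbxo32 changed by the same amount was tested on their ratio within each muscle, which does not depend on the scaling. The FPKM of Trim63 was 4.91, 5.65 and 4.83 times that of Fbxo32 in C26 muscles. In control muscles it was 3.55, 3.15 and 4.16 times. The mean log2 ratio was 2.36 ± 0.12 (SD, n = 3) in C26 and 1.85 ± 0.20 (SD, n = 3) in control muscles, a difference of 0.51. Every C26 ratio was above every control ratio, and a two-sided exact permutation test gave p = 0.1, below which a design of this size cannot go.

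The stretch of 250 bases before the start of Trim63 is shown because it holds an element for FoxO factors, which are known to drive Trim63 in atrophy, directly beside a short element of the glucocorticoid receptor. It lies on the plus strand of GRCm38.p6 at chr4:134314870-134315119, from RefSeq. Capitals mark matches, in either orientation, to the FoxO element GTAAACA, the insulin response element CAAAACA, which FoxO factors also bind, and the short glucocorticoid element AGAACA. The windows of Traf6 (chr2:101678170-101678419, plus strand) and Fbxo31 (chr8:121578807-121579056, minus strand) are set beside it for comparison.
Trim63: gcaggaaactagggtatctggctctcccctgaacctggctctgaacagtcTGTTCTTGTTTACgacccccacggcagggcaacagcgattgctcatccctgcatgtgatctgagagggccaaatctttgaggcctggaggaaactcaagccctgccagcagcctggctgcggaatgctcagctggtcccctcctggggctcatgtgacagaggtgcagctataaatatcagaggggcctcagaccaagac
Traf6: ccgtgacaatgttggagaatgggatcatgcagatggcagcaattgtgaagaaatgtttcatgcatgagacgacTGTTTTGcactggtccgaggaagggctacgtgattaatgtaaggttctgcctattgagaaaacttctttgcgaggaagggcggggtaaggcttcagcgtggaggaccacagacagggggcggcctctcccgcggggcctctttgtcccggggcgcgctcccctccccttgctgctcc
Fbxo31: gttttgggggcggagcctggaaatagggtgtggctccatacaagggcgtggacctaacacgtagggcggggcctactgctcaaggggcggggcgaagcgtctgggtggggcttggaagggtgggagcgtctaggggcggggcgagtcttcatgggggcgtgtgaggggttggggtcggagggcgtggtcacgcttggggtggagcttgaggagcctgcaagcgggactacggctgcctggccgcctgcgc
In Trim63 the short glucocorticoid element begins 200 bases and the FoxO element 194 bases before the start, so they adjoin. Traf6, which was not called, matched the insulin response element 177 bases before its start, and Fbxo31, which was called higher, matched none of the 3. Windows were found for 9 of the 10 genes, all but Fbxo32, with a pair of windows for Nedd4. Of the 10 windows, 1 held the FoxO element, 1 the insulin response element and 2 the short glucocorticoid element. Among 32841 windows of all genes the shares were 3.17%, 5.56% and 16.1%. Other motifs searched on both strands were the E-box CANNTG, in 6 windows against 66.2% of all, the STAT element TTCNNNGAA, in 1 against 7.02%, and the C/EBP element TTGCNNAA, in 1 against 9.57%. An exact match to the full glucocorticoid palindrome, which contains the short element, was in 0 of the 10 windows and in 3 of all 32841. This search allowed no mismatch. The Trim63 window differs from the palindrome at 1 base, with its short element as the second arm. How many other windows hold such a near match was not examined. A match of letters is a description and not evidence of binding.

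The other F-box genes of the group moved unequally. Fbxo31, an F-box protein known to bind cyclin D1, had 219, 248.9 and 112 FPKM in C26 replicates 1 to 3, against 28.1, 32.6 and 23.7 in the controls. All C26 muscles were above all controls, but C26 replicate 3 stayed well below the other two. C26 Fbxo31 exceeded control by 2.90 on the log2 scale, with an SE of 0.31 and a limma adjusted p of 0.00309. Fbxo30, or MUSA1, is a ligase that BMP signaling is known to hold down in muscle. Fbxo30 had 9.20, 6.58 and 8.06 FPKM in C26 muscles and 1.66, 2.07 and 1.66 in control muscles. Here C26 replicate 3 was not the lowest, and the groups were far apart although the level was low. This was a fold change of 4.01 (log2 2.01), with an SE of 0.20 on the log2 scale and a limma adjusted p of 0.00238. It sits at the fold criterion of 4. The log2 value was 1.67 with FPKM as deposited, 1.86 with the 20 most abundant genes left out of the scaling and 1.97 without both muscles numbered 3. It was 1.90, 1.95 and 1.93 without C26 replicate 1, control replicate 1 and control replicate 3. The value lay above the criterion with 0.1 added in place of 1 (2.31), with quantile normalization (2.13) and without TMM factors (2.03). This also held without C26 replicate 2 (2.15), C26 replicate 3 (2.03) or control replicate 2 (2.14).

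Fbxo21, or SMART, is the third of the F-box genes that were described as FoxO-dependent ligases of atrophy. Fbxo21 had 4.73, 3.50 and 4.46 FPKM in C26 muscles and 8.76, 7.61 and 4.66 in control muscles. Control replicate 3 lay within the range of the C26 muscles, and the other controls lay above them. Fbxo21 had a log2 fold change of -0.43 with a 95% interval from -1.09 to 0.23 and a limma adjusted p of 0.259. Without control replicate 3 it was -0.72 with an adjusted p of 0.0363 (limma), so that 1 muscle decided this call.

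Mul1 is a ligase of the outer mitochondrial membrane that acts on mitofusin 2. Mul1 had 24.0, 18.7 and 15.6 FPKM in C26 muscles and 8.90, 10.6 and 8.65 in control muscles, without overlap. C26 Mul1 exceeded control by 1.19 on the log2 scale, with an SE of 0.21 and a limma adjusted p of 0.00906, and this was the smallest change among the 6 called genes. Cblb is a RING ligase known in unloaded muscle for the breakdown of the insulin receptor substrate Irs1. Cblb had 10.2, 9.83 and 6.02 FPKM in C26 muscles and 2.58, 2.94 and 3.78 in control muscles. The lowest C26 muscle was 1.59-fold above the highest control, which was control replicate 3, the muscle with the high B cell markers. C26 Cblb exceeded control by 1.49 on the log2 scale, with an SE of 0.21 and a limma adjusted p of 0.00589, and it was 1.58 without that muscle.

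Nedd4 is a HECT ligase that is abundant in resting muscle. Nedd4 had 126, 124 and 63.9 FPKM in C26 muscles and 69.3, 69.5 and 43.0 in control muscles. C26 replicate 3 lay below control replicates 1 and 2, so the FPKM of the groups overlapped. After scaling the 3 C26 values lay narrowly above the 3 control values, as did those of 27% of all genes. Nedd4 had a log2 fold change of 0.96 with a 95% interval from 0.17 to 1.76 and a limma adjusted p of 0.0642, and it did not pass the threshold. Without C26 replicate 3 it was 1.33 (adjusted p = 0.0166 from limma).

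Trim32 and Traf6 were the genes with the lowest means in C26 muscles. Trim32, a TRIM ligase of desmin and thin filament proteins that is mutated in a limb-girdle muscular dystrophy, had 1.28, 2.08 and 2.19 FPKM in C26 muscles and 3.06, 3.25 and 2.36 in control muscles. Its log2 fold change was -0.35 with a 95% interval from -0.91 to 0.20 and a limma adjusted p of 0.267. The value was -0.16 without C26 replicate 1, -0.22 without control replicate 2, -0.08 with quantile normalization and -0.65 with the 20 most abundant genes left out of the scaling, and Trim32 was not called in any of these. Traf6, an adaptor ligase of inflammatory receptors, had 2.35, 1.74 and 2.63 FPKM in C26 muscles and 2.73, 2.70 and 3.41 in control muscles. The log2 fold change of Traf6 was -0.15 with a 95% interval from -0.60 to 0.29 and a limma adjusted p of 0.546. By FPKM the C26 muscles lay below all controls for both genes, as they did for 34.6% of all genes, and after scaling the groups overlapped for both.

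**Figure D3:**
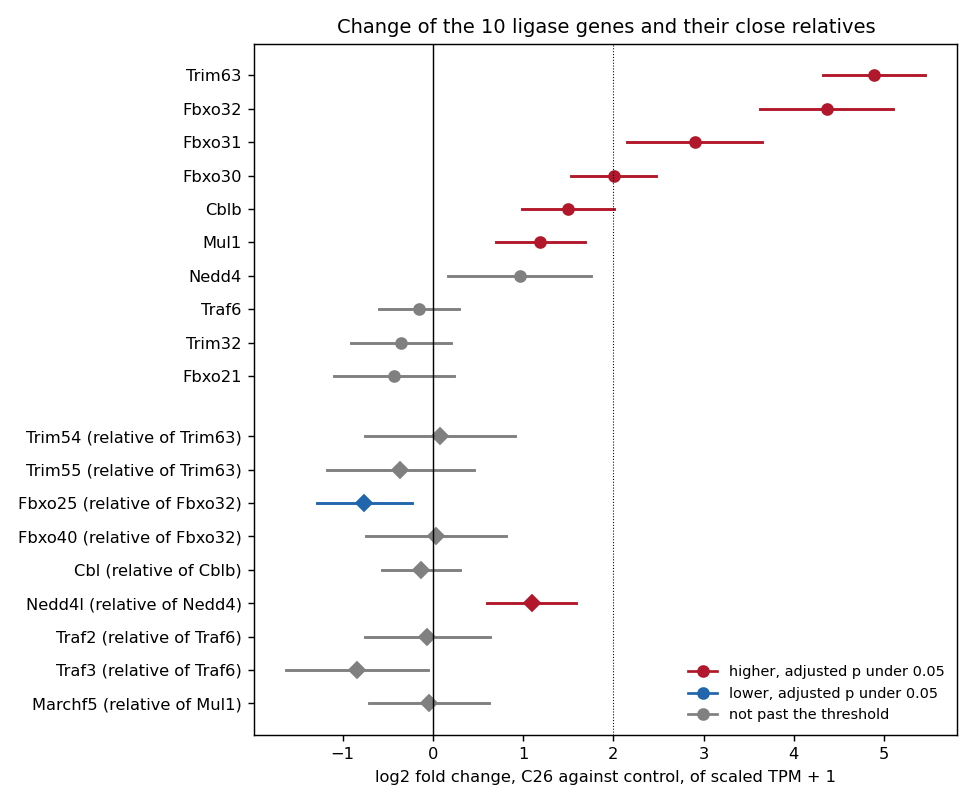
Log2 fold change with its 95% confidence interval, C26 against control muscles, of the 10 ligase genes (circles) and of close relatives (diamonds), on the scale of scaled TPM + 1. Red and blue mark genes higher or lower with an adjusted p under 0.05, grey the others, and the dotted line is a fold change of 4, which 4 ligase genes reach.

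The order of levels by FPKM differed between the groups. In control muscles the means ran from Trim63 (129 FPKM) over Nedd4 (60.6), Fbxo32 (36.7), Fbxo31 (28.1), Mul1 (9.39), Fbxo21 (7.01), Cblb (3.10), Traf6 (2.95) and Trim32 (2.89) to Fbxo30 (1.80). In C26 muscles they ran from Trim63 (3359) over Fbxo32 (658), Fbxo31 (194), Nedd4 (104), Mul1 (19.4), Cblb (8.67), Fbxo30 (7.95), Fbxo21 (4.23) and Traf6 (2.24) to Trim32 (1.85). The ranges of neighbours overlapped for Nedd4 and Fbxo32, Fbxo32 and Fbxo31, Mul1 and Fbxo21, Cblb and Traf6, and Traf6 and Trim32 in control muscles. In C26 muscles they overlapped for Fbxo31 and Nedd4, Cblb and Fbxo30, and Traf6 and Trim32. Nedd4 was above Fbxo32 in each control muscle and below it in each C26 muscle. Fbxo30, the lowest of the 10 in control muscles, was above Fbxo21 in each C26 muscle.

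Among the C26 muscles, replicate 1 had the highest FPKM for 7 of the 10 genes and replicate 3 the lowest for 6. Among the controls, replicate 2 had the highest for 7 and replicate 3 the lowest for 7. With both muscles numbered 3 left out, 7 ligase genes were called higher, with Nedd4 added, and Fbxo21 was called lower, while 3780 of all 13363 genes were called higher and 2805 lower. The coefficient of variation within the C26 group was largest for Fbxo31, at 37.2%, and Nedd4, at 33.6%, and smallest for Fbxo21, at 15.3%.

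The genes whose profile over the 6 muscles was most like that of Trim63 were found by Euclidean distance between log2 values centred on each gene's own mean. The values were not scaled to each gene's spread, so this distance mainly picks genes with a similar fold change. The nearest was Maff, a small Maf transcription factor, at a distance of 0.43. It was followed by Depp1, a FoxO target (0.57), Retreg1, a receptor for autophagy of the endoplasmic reticulum (0.58), Fbxo32 (0.72) and Acss1, a mitochondrial acetyl-CoA synthetase (1.02). For Fbxo32 the nearest was Retreg1 (0.31), then Acss1 (0.60), D230025D16Rik (0.62), Maff (0.63) and Pdk4, the kinase that shuts down pyruvate dehydrogenase (0.64). Retreg1 had 1204.5, 1036 and 820 FPKM in C26 muscles and 52.1, 67.8 and 40.3 in control muscles, with the same order of muscles within each group as Trim63. No other ligase of the 10 was among the nearest 5 of either gene.

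Close relatives of 5 of the ligases, Trim63, Fbxo32, Cblb, Nedd4 and Traf6, and the mitochondrial ligase Marchf5 beside Mul1, were compared by name. Trim54 and Trim55, or MuRF3 and MuRF2, are the sarcomere paralogs of Trim63. Trim54 had 294, 272 and 612 FPKM in C26 and 407, 396 and 404 in the controls, a log2 difference of 0.08 (95% confidence interval -0.75 to 0.91), which turned negative with FPKM as deposited, with quantile normalization, with the 20 most abundant genes left out of the scaling, and without C26 replicate 3 or both muscles numbered 3. Trim55 had a log2 fold change of -0.36 (95% confidence interval -1.17 to 0.45), which ranged from -0.73 without control replicate 3 to -0.10 without control replicate 2, and it was called lower without control replicate 3 and without both muscles numbered 3. In control muscles Trim54 was thus more abundant than Trim63, and in C26 muscles Trim63 was the more abundant in every muscle. Fbxo25, the F-box gene most like Fbxo32, fell from 5.76 ± 0.06 to 2.76 ± 0.82 FPKM (SD, n = 3), a log2 fold change of -0.76 (limma adjusted p 0.0401). This call held without C26 replicate 3 and was lost without any of the other 5 muscles, where limma adjusted p reached 0.13, and it was also lost with quantile normalization and with the replicate number as a block. Fbxo40, a muscle F-box protein that acts on Irs1, had a log2 fold change of 0.03 (95% confidence interval -0.74 to 0.81), and its sign changed with the scaling and with the muscle left out. Nedd4l, the paralog of Nedd4, rose from 1.98 ± 0.43 to 4.30 ± 0.94 FPKM (SD, n = 3), with a log2 fold change of 1.10 (limma adjusted p 0.0110). Traf3 had a log2 fold change of -0.84 and was not called (limma adjusted p 0.0885), but was called lower without C26 replicate 3, without both muscles numbered 3, with the 20 most abundant genes left out of the scaling and with the replicate number as a block. Cbl (log2 fold change -0.13), Traf2 (-0.06) and Marchf5 (-0.04) did not pass the threshold, and each changed sign with 1 or more muscles left out, and Cblc had no values. Reads that fit a pair of paralogs could be divided between them by the authors' estimation.

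Partners of the F-box proteins were examined with 12 genes of the SCF core and of neddylation, the modification that activates cullins. Of these, 3 (25%) were called higher and 0 lower (limma), where 19.4% and 14.5% of all genes were. At an unadjusted p under 0.05 the counts were 3 and 1, where 25.1% and 22% of all genes passed. The median log2 fold change of the 12 was -0.07. It was -0.43 with quantile normalization, -0.37 with the 20 most abundant genes left out of the scaling and -0.28 with FPKM as deposited. Cul1, the scaffold of the complex, rose from 31.7 ± 2.77 to 65.7 ± 10.2 FPKM (SD, n = 3), a log2 fold change of 1.24 (limma adjusted p 0.00622). Nae1, of the enzyme that activates Nedd8, and Cops5, of the complex that removes Nedd8, had log2 fold changes of 0.84 and 0.60. The calls of Nae1 and Cops5 were each lost without C26 replicate 1 and without control replicate 1, and that of Cops5 also without C26 replicate 2, with adjusted p of up to 0.0549 and 0.0794 (limma). Both calls were also lost with the 20 most abundant genes left out of the scaling, which left 1 of the 12 called higher, and that of Cops5 with quantile normalization and with the replicate number as a block. Skp1, the adaptor that holds the F-box, and Rbx1, the RING subunit, had log2 fold changes of -0.13 and -0.57 and were not called, and Skp1 was just above 0 without C26 replicate 2. Rbx1 was lower in every C26 muscle than in every control, by FPKM and after scaling, and was called lower in 4 of 9 alternatives, namely FPKM as deposited, quantile normalization, the 20 most abundant genes left out of the scaling and both muscles numbered 3 left out, and also without C26 replicate 3. With quantile normalization 5 of the 12 were called lower, as were 1574 of all 13363 genes.

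A further 29 genes were ligases known in muscle and the ubiquitin-binding protein Zfand5. Of these, 11 (37.9%) were called higher and 1 (3.45%) lower, against 19.4% and 14.5% of all genes. Their median log2 fold change was 0.17, or -0.13 with the 20 most abundant genes left out of the scaling. Zfand5 rose from 107 ± 19.9 to 342 ± 53.3 FPKM (SD, n = 3), a log2 fold change of 1.89 (limma adjusted p 0.00476). Ubr2, a ligase of the N-degron pathway, rose by 1.46 on the log2 scale and its relative Ubr4 by 0.95. Fbxw7, the F-box protein of cyclin E and Myc, fell by 1.32 on the log2 scale. The call of Ubr4 was lost with the replicate number as a block, and without C26 replicate 1 or control replicate 1, with an adjusted p of up to 0.0641, and that of Fbxw7 with any muscle left out other than C26 replicate 3, with an adjusted p of up to 0.092 (limma). The number called higher fell to 5 with the 20 most abundant genes left out of the scaling, and to 4 without C26 replicate 1 or control replicate 1.

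Outside the 10 genes, the F-box family had 50 genes with values, 2 of them also in the list above. Of these 50, 10 were called higher and 9 lower, where 19.4% and 14.5% of all genes were, and their median log2 fold change was 0.03, or -0.22 with the 20 most abundant genes left out of the scaling. The number called higher was 6 with FPKM as deposited or with that scaling and 14 without both muscles numbered 3, and the number called lower was 4 with quantile normalization. With a muscle left out, the lowest counts were 5 higher, without C26 replicate 1, C26 replicate 2 or control replicate 1, and 2 lower, without C26 replicate 1. Fbxo44 rose by 1.91, Fbxo6 by 1.53, Fbxw11 by 1.47 and Fbxl4 by 1.37 on the log2 scale, and Fbxo44 and Fbxo6 are close relatives. The call of Fbxl4 was lost without C26 replicate 1, C26 replicate 2, control replicate 1 or control replicate 3, with an adjusted p of up to 0.0782 (limma). With an adjusted p under 0.05 (limma), 0 of the 50 passed a fold change of 4 in either direction, where 1.76% of all genes did so as higher and 1.73% as lower.

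The TRIM family had 42 further genes with values, 3 of them also among the ligases known in muscle. Of these 42, 4 (9.52%) were called higher and 12 (28.6%) lower, against 19.4% and 14.5% of all genes. Their median log2 fold change was -0.10, or 0.08 among genes with a mean TPM of at least 1. Trim7, known to bind glycogenin, fell most, from 11.2 ± 3.96 to 0.703 ± 0.386 FPKM (SD, n = 3), a log2 fold change of -2.99 (limma adjusted p 0.00255). Trim12c, Trim14, Trim30a and Trim21, which belong to innate immunity, fell by 1.80, 1.64, 1.63 and 1.58 on the log2 scale. Their levels were low, with means of 1.53, 0.22, 0.50 and 0.37 FPKM in C26 muscles and 8.11, 2.38, 3.63 and 2.77 in the controls. Values of this size depend on the added 1, and Trim30a ran from 1.23 to 6.56 FPKM within the controls. The call of Trim30a held only without control replicate 2 among the fits that left out a muscle, with an adjusted p of up to 0.0931 (limma), and was also lost with quantile normalization and without both muscles numbered 3. The number of TRIM genes called lower was 5 with quantile normalization and 15 with the 20 most abundant genes left out of the scaling. Without C26 replicate 1, C26 replicate 2 or control replicate 1, 4 were called lower and 0 higher. The number called higher was also 0 with that scaling, and 8 without both muscles numbered 3.

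**Figure D4:**
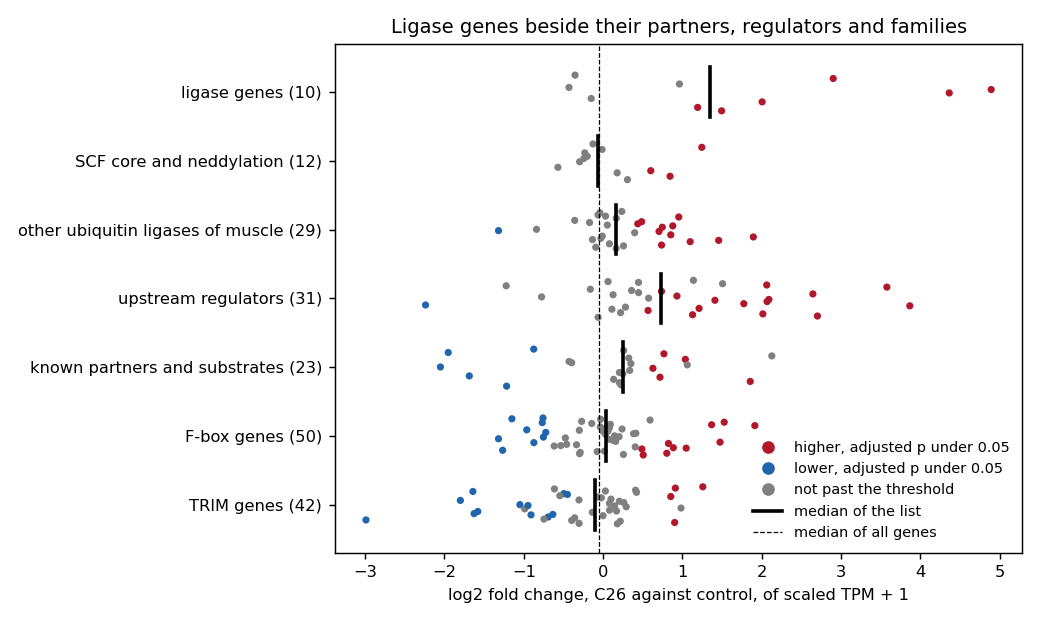
Log2 fold change of each gene, C26 against control muscles, on the scale of scaled TPM + 1, for the 10 ligase genes and 6 gene lists with the number of genes with values in parentheses. Red and blue points passed an adjusted p of 0.05, vertical bars are list medians and the dashed line is the median of all genes, -0.05. The medians run from -0.10 for the TRIM genes to 1.34 for the 10 ligases.

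Regulators known to act on Trim63 and Fbxo32 were examined with 31 genes. Of these, 15 (48.4%) were called higher and 1 (3.23%) lower, against 19.4% and 14.5% of all genes. Their median log2 fold change was 0.74, or 0.45 with the 20 most abundant genes left out of the scaling. Foxo1 had 23.3, 21.2 and 14.6 FPKM in C26 muscles and 3.99, 2.97 and 8.96 in control muscles. Foxo3 had 14.9, 11.2 and 15.8 FPKM in C26 muscles and 3.24, 3.63 and 3.60 in control muscles. Neither gene overlapped between the groups, and control replicate 3 had the highest Foxo1 and the lowest Trim63 and Fbxo32 FPKM of the controls. That muscle is also the one with the high B cell markers, whose part in its Foxo1 value was not tested. Foxo4 had a log2 fold change of 0.36, which quantile normalization turned below 0, and was not called, and Foxo6 fell from 4.97 ± 0.26 to 0.470 ± 0.115 FPKM (SD, n = 3), a log2 fold change of -2.24 (limma adjusted p 0.000822). Klf15, a glucocorticoid-induced factor, had 120, 99.0 and 78.7 FPKM in C26 muscles and 17.5, 22.4 and 12.2 in control muscles, with the same order of muscles within each group as Trim63. The receptor genes Tnfrsf12a and Il6ra and the kinase gene Akt1 rose by 3.87, 3.58 and 2.65 on the log2 scale. Tnfrsf12a was at 184 FPKM in C26 replicate 2 and at 64.1 and 45.6 in the others. The macrophage marker Cd68 was also highest in that muscle, at 247 FPKM against 34.9 and 6.46 in the other C26 muscles and at most 5.77 in the controls. Of the 7 macrophage markers 0 were called, their sums were 88.0, 288 and 33.8 FPKM in C26 replicates 1 to 3 and 54.2, 37.7 and 206 in the controls, and their part in the result was not tested. Cebpb rose by 2.06 on the log2 scale, while Nr3c1, the glucocorticoid receptor, had a log2 fold change of -0.16 and Mstn, or myostatin, of 0.28, and neither was called. Mstn had 41.2 FPKM in C26 replicate 3 against 16.1 and 15.4 in the other C26 muscles, and its value was -0.13 without that muscle and also below 0 with quantile normalization, with the 20 most abundant genes left out of the scaling and without both muscles numbered 3.

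Known partners and substrates of the 10 ligases were examined with 23 genes. Of these, 5 (21.7%) were called higher and 5 (21.7%) lower, against 19.4% and 14.5% of all genes. The number called higher was 2 without C26 replicate 1, C26 replicate 2 or control replicate 1. It was also 2 with the 20 most abundant genes left out of the scaling. The median log2 fold change of the 23 was 0.25, and it turned below 0 with quantile normalization (-0.045) and with that scaling (-0.043). The light chains Mylpf and Myl1, which Trim63 is known to mark, were lower in every C26 muscle, whereas the other myosin and thick filament genes of the list, Myh1, Myh2, Myh4, Myh7, Mybpc1, Mybpc2 and Ttn, were not called. Myh1 had 299, 254 and 2555 FPKM in C26 muscles and 92.8, 331 and 118 in the controls, and Mybpc1 was likewise high in C26 replicate 3 alone. Myh4 was called higher with quantile normalization, and for each of the 7 except Myh1 the sign changed with a setting or a left-out muscle. Mylpf had 4535, 2458 and 8041 FPKM in C26 muscles and 21134, 17622 and 21915 in the controls, a log2 difference of -1.95 (limma adjusted p 0.0179). Myl1 had a log2 fold change of -1.69. The call of Mylpf was lost without C26 replicate 1 and without control replicate 1, with an adjusted p of up to 0.0645 (limma). Myod1, whose protein Fbxo32 binds, fell from 14.8 ± 1.44 to 2.91 ± 1.49 FPKM (SD, n = 3), a log2 fold change of -2.05 (limma adjusted p 0.0108). Ccnd1, which encodes the cyclin D1 that Fbxo31 binds, fell by 1.22 on the log2 scale from a level of 1.77 FPKM. All values of this list are RNA levels, and breakdown of the proteins was not measured here. Among the substrates called higher, Eif3f, whose protein Fbxo32 binds, had a log2 fold change of 0.63 and Des, which encodes the desmin that Trim32 marks, of 0.72 (limma adjusted p 0.0185 for each). Both calls were lost without C26 replicate 1, C26 replicate 2 or control replicate 1, and that of Eif3f also without control replicate 2, with adjusted p of up to 0.0762 and 0.0724 (limma). Quantile normalization and the scaling without the 20 most abundant genes also ended both, FPKM as deposited and the replicate block that of Eif3f, and an intensity trend that of Des. Sqstm1, or p62, a partner of Traf6 and receptor of autophagy, had 1415, 1137 and 989 FPKM in C26 muscles and 406, 384 and 336 in the controls, a log2 difference of 1.86 (limma adjusted p 0.00259). Mfn2, the substrate of Mul1, and Irs1, that of Cblb, had log2 fold changes of 0.26 and 0.21 and were not called, and both turned below 0 with the 20 most abundant genes left out of the scaling, Mfn2 also with quantile normalization and Irs1 also without C26 replicate 1.

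In the annotation of GRCm38 (GENCODE M21), Trim63 lies on the plus strand at chr4:134315120-134329629 with 9 exons in its longest coding transcript, and Fbxo32 on the minus strand at chr15:58175879-58214932 with 9 exons. Fbxo31 lies at chr8:121549440-121578806 and Fbxo30 at chr10:11281330-11298052. Mul1 (chr4:138434671-138442265) and Trim32 (chr4:65604986-65616238) share chromosome 4 with Trim63. Trim32 lies wholly within Astn2 on the opposite strand, which had mean FPKM of 0.0833 in C26 and 0.24 in control muscles. Fbxo31 is overlapped over its length by Gm20388 on the opposite strand, and Fbxo32 over 458 bases by the antisense gene Gm15943, and neither had values in the table. These overlaps are of whole genes, and overlap of exons was not examined. The strand setting of the libraries is not given in the sources used here, so how far reads of such genes were told apart is unknown.

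**Figure D5:**
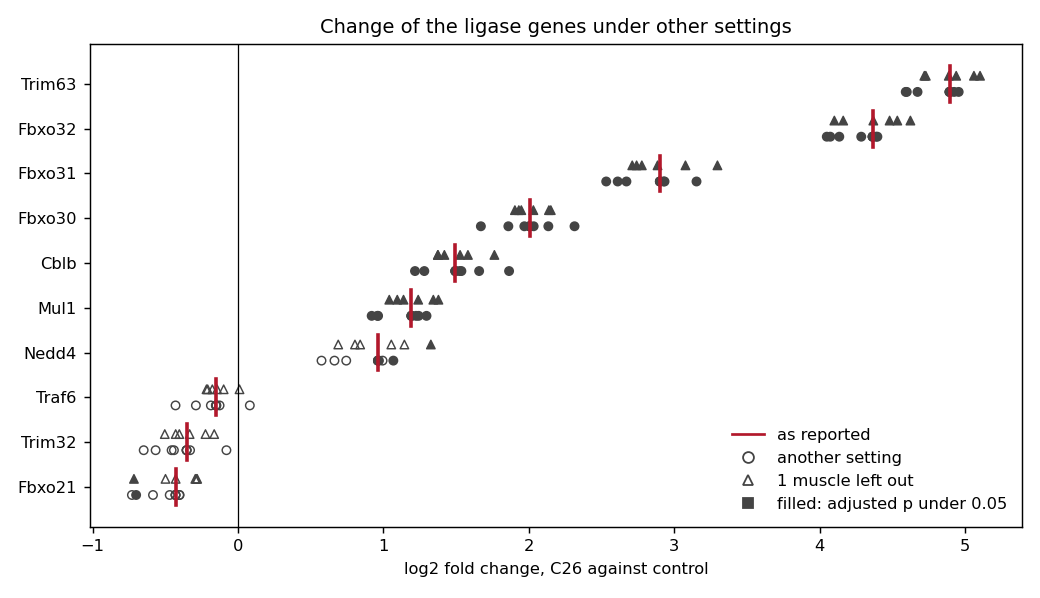
Log2 fold change of each ligase gene, C26 against control muscles, as reported (red bar), under 9 other settings (circles) and with 1 muscle left out in turn (triangles), filled where the adjusted p was under 0.05. The 6 called genes are filled throughout, Nedd4 and Fbxo21 change between filled and open, and Traf6 crosses 0.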

How the data were processed

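Total RNA of mouse gastrocnemius muscle was sequenced after rRNA removal, as single-end reads of 50 bases. The authors removed adaptor, low-quality and rRNA reads, aligned the rest with bowtie2 and estimated expression by RSEM. The methods of the study name GRCm38.p5, whereas the labels list mm9 with HISAT2 2.0.4, Bowtie2 2.2.5 and RSEM 1.2.12. The extraction text of the labels describes frozen gastrocnemius but also names infected THP-1 cells, a human monocytic line, whereas the methods name muscle biopsies and TRIzol. The deposited values are FPKM with 2 decimals under Entrez gene IDs, above 0 in all 6 samples for all 13363 genes. The depth and counting error behind each value are unknown. Groups come from the sample titles.

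Symbols were matched for 13327 IDs with the RefSeq table of GRCm38.p6. FPKM were rescaled to a sum of 1000000 and divided by unweighted TMM factors (30% of log ratios and 5% of levels trimmed), and 1 was added before log2. Groups were compared with limma 3.58.1 (R 4.3.3), with Benjamini-Hochberg adjustment over all genes and a threshold of 0.05. The fit was also run on simulated data with independent noise and few changed genes, which cannot test how the calls depend on the scaling. The genes and lists were chosen with earlier results of these data known. Named were the 10 ligases, fixed relatives, the 5 called genes of each list with the largest changes and the 5 nearest profiles of Trim63 and Fbxo32. Other members of these lists were named for their known roles, after their values were seen. Some genes of these lists are not reported here. The tests were repeated with 0.1 added in place of 1, on genes with a mean TPM of at least 1, without TMM factors, on FPKM as deposited, with quantile normalization, with a replicate block, with an intensity trend and without each muscle. Leaving out both muscles numbered 3, and the 20 most abundant genes in the scaling, was chosen after seeing the data.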

Additional observations from a re-analysis of the deposited data

How the results depend on the processing

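Trim63, Fbxo32, Fbxo31, Fbxo30, Cblb and Mul1 were called higher under all 9 alternatives and in all 6 fits that left out a muscle, with adjusted p of at most 0.0437 (limma). The number of ligases called higher was 6 or 7 and of those called lower 0 or 1 with a muscle left out, the additions being Nedd4 without C26 replicate 3 and Fbxo21 without control replicate 3. With both muscles numbered 3 left out, 1 was called lower. Traf6 turned to a log2 fold change of 0.081 with quantile normalization and lay between -0.217 and 0.01 with a muscle left out, above 0 without C26 replicate 2, and it was not called in any. Over all genes, 1678 were called higher with FPKM as deposited, against 2589 as reported. With the 20 most abundant genes left out of the scaling 1520 were called higher and 3356 lower, and 27 genes of the 6 lists were called higher against 47. With a muscle left out, 1127 to 3311 genes were called higher and 669 to 2160 lower. Of the list genes, 25 to 54 were called higher and 11 to 25 lower, where 47 and 27 were reported. These counts, over all genes and over the lists, fell by more than 1.5 times without C26 replicate 1, C26 replicate 2 or control replicate 1. The cause was not tested. The difference in the log2 ratio of Trim63 to Fbxo32 lay between 0.41 and 0.61 with a muscle left out.

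The replicate numbers were not taken to pair the mice, since same-numbered muscles deviated from their group means with correlations of -0.04, -0.08 and -0.11. With the replicate number as a block, 1235 genes were called lower against 1932, and Nedd4 was called (adjusted p = 0.0266 from limma) beside the 6 ligases. The depth is unknown, so the precision of Traf6, Trim32 and Fbxo30 at a few FPKM rests on 3 muscles a group.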
